A study of Mus musculus with 12 samples.

Results

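The subject is whether antibiotics altered the expression that mouse hematopoietic stem cells (HSCs) reached 12 days after the chemotherapy drug 5-fluorouracil (5-FU). For each gene this is a difference of differences, called the interaction here: the 5-FU change in antibiotic-treated mice minus the 5-FU change in mice without antibiotics. It was taken on the scale log2(RPKM + 1), where RPKM is the read count scaled to transcript length and to the library's mapped reads. A positive interaction means that 5-FU moved the gene further up, or less far down, with antibiotics than without. All 12 libraries of the series entered, and 8553 of 46986 features were tested, those at 1 RPKM or more in at least 3 libraries.

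The 4 groups of 3 libraries came from bone marrow HSCs of 12-week-old C57BL/6 mice: control, control 5-FU, antibiotics and antibiotics 5-FU. Antibiotics were ampicillin, neomycin, metronidazole and vancomycin, given in the drinking water for 4 to 6 weeks, and 5-FU was a single intravenous challenge of 200 mg/kg. Each library was made from 2000 sorted cells, by gates that the sources used here do not give. Whether the libraries of a group are separate animals is not in the labels. The p-values therefore reflect the spread between these libraries alone, and that spread may be technical.

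HSCs are the rare, mostly resting cells that sustain blood formation. 5-FU kills dividing progenitors and drives HSCs into division, after which they return toward rest. Oral broad-spectrum antibiotics deplete gut bacteria, and microbial products are a known source of tonic interferon and inflammatory signals to the bone marrow. Type I interferon activates a transcription factor complex that binds a short promoter element and turns on antiviral genes.

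Estimated depth ranged from 27900000 to 54800000 reads per library. Pearson correlations between libraries of a group, on the log scale, were 0.985 to 0.993 in the other 3 groups. In the control 5-FU group, library 1 stood apart, at 0.972 and 0.971 against 0.989 between libraries 2 and 3. HSC genes were present in every library: Hlf, a stem cell transcription factor, was at 4.47 to 7.82 RPKM, and Procr, a surface marker of HSCs, at 15.9 to 31.6 RPKM. Summed RPKM per library ran from 9.97 to 25.01 for 12 B cell genes, from 25.1 to 56.4 for 18 T and NK cell genes, from 218 to 660 for 24 erythroid genes and from 103 to 385 for 20 neutrophil and monocyte genes. Cd3e, Cd3g, Cd8a, Ms4a1 and Pax5 were listed at 0 throughout, but so was the ribosomal protein gene Rps12, so a listed 0 does not show that a gene was not expressed. The i7 index differed between 5-FU and untreated libraries, but every index paired 1 antibiotics library with 1 library of mice without them, so the interaction can be taken within indexes.

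The 5-FU changes in the presence and absence of antibiotics ran broadly in parallel. Across the 8553 genes, Pearson's r between them was 0.788 and Spearman's rho 0.738, with a slope of 1.17 by total least squares. Those are descriptions over genes, which are not independent replicates, of values that share no library. Mean squares per gene were 0.339 for 5-FU, 0.0957 for antibiotics and 0.0417 for the interaction, against 0.0380 between libraries of a group. The interaction term was thus barely above the spread between replicates. Its median over all genes was -0.02, with the middle 50% of genes between -0.14 and 0.11.

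One feature was called by limma with Benjamini-Hochberg adjustment at 0.05, the predicted transcript Gm37599, which is 0.0117% of genes tested. The next smallest adjusted p was 0.272. At an unadjusted p below 0.05 the same fit held 710 genes, of which 342 were positive (4.00% of genes tested) and 368 negative (4.30%). These are the shares against which counts of named groups are read below. In a count that uses no model, all 9 differences between a 5-FU and an untreated library with antibiotics exceeded all 9 without antibiotics for 156 genes (1.82%), and lay below all 9 for 128 genes (1.50%).

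The data bound the size of most interactions on the log2(RPKM + 1) scale. The 95% interval lay wholly within 1 log2 unit of 0 for 7976 genes (93.3%). It lay within 0.585 log2 units, a 1.5-fold difference in RPKM + 1, for 70.1%. In RPKM itself the bound is looser for low genes, and 3361 of the 8553 genes tested averaged 5 RPKM or more. The median distance from the estimate to either end of the interval was 0.31. Estimates of at least 1 log2 unit in size numbered 31, of which 12 were positive and 19 negative. Among the 710 genes, 354 had changes of opposite sign with and without antibiotics, 267 had the larger change with antibiotics and 89 the smaller.

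Genes that changed most with 5-FU tended to have the larger change with antibiotics, but this rested on few libraries. A set of 135 genes had a mean 5-FU change of at least 1 log2 unit over both kinds of mice, and 134 of them had the same sign in both. The size was larger with antibiotics for 93 of the 135 genes (68.9%), with medians of 1.30 with and 1.18 without. Without control 5-FU library 2 the share was 52.7%, and without antibiotics 5-FU library 2 it was 75.2%.

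**Figure D1:**
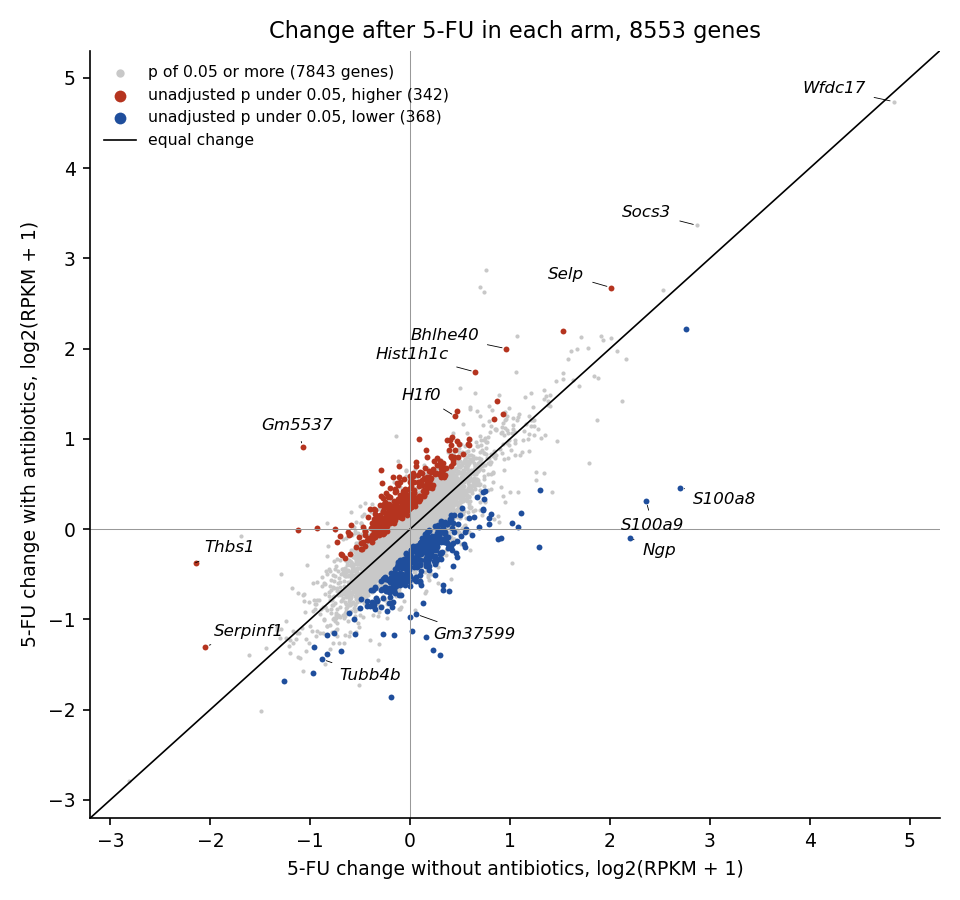
Change after 5-FU without antibiotics (x axis) against the change with antibiotics (y axis), both on the log2(RPKM + 1) scale, for 8553 genes. Points lie along the line of equal change with r = 0.788. Red and blue points, 342 and 368 genes, lie above and below it with an unadjusted p below 0.05.

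Gm37599, the single call, had its lowest values in mice given both antibiotics and 5-FU. It lies on chromosome 1 (mm10, 141356789 to 141357277, plus strand) and has the biotype TEC, a class of unverified transcripts. Its RPKM was 3.46, 3.02 and 2.84 in control libraries 1 to 3, and 3.18, 3.51 and 3.13 in control 5-FU libraries. With antibiotics it was 3.71, 3.72 and 3.25, and after 5-FU it was 1.48, 1.27 and 1.35. The 3 antibiotics 5-FU libraries lay below the other 9, which overlapped. Its interaction was -1.004 ± 0.11 (SE; adjusted p = 0.0134, limma). The call was lost without control library 2 or 3, control 5-FU library 2, antibiotics library 1 or 2, or antibiotics 5-FU library 2 or 3, with adjusted p of 0.0615 to 0.0791. With the i7 index as a block the adjusted p was 0.111, and under a filter of 5 RPKM the gene was not tested.

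The transcript is shown because its letters bear on what its value counts. The 489-base transcript of Gm37599 matched that of Ppid, which encodes a peptidyl-prolyl isomerase of the cyclophilin family, at 95.9% over 492 aligned bases. Bases 1 to 240 of the GENCODE M21 transcript follow, 5′ to 3′, with capitals at the 7 bases that differ from the aligned Ppid transcript.
Gm37599: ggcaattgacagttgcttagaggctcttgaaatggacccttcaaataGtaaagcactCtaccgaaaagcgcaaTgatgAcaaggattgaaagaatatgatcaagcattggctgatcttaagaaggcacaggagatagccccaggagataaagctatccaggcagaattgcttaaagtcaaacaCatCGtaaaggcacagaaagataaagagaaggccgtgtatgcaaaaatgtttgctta
Transcripts of Lamp3 (95.5% over 402 bases) and Gm43096 (95.3% over 236 bases) also matched that of Gm37599. Reads of matching transcripts could be assigned to one another if the counting allowed it, and no source used here states the counting rule. Ppid was at 7.98, 6.61 and 8.02 RPKM in control, 6.49, 6.70 and 5.40 in control 5-FU, 7.005, 6.25 and 6.52 with antibiotics, and 4.12, 4.06 and 4.30 in antibiotics 5-FU libraries. Its interaction was -0.31 ± 0.13 (adjusted p = 0.598), of the same sign and smaller. Whether shared reads had a part in the call was not tested.

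The 10 leading genes on the positive side, none of which passed the adjusted threshold, included Zfp513, H1f0, Serpinf1, Rbmx, Ccdc28b, H2-T22, Polr2a, Calr and Klhdc3. For 8 of the 10, the antibiotics mean lay below control in untreated mice, and for 9 of the 10 the antibiotics 5-FU mean lay above control 5-FU. Both held for 7 of them. The interaction is the second of these differences minus the first, so selection by its p favors these signs. Of the 342 positive genes at an unadjusted p below 0.05 (limma), 307 met the first condition, 312 the second and 277 both.

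H1f0 encodes the linker histone H1.0, a replication-independent histone that accumulates in resting and differentiating cells (chromosome 15, 79028212 to 79030498). It was at 97.7, 92.2 and 97.0 RPKM in control and 138, 118 and 139 in control 5-FU libraries. With antibiotics it was at 70.3, 66.1 and 86.2 RPKM, and after 5-FU at 181, 171 and 179. No group overlapped another, with antibiotics the lowest and antibiotics 5-FU the highest. The 5-FU change was 0.45 without and 1.25 with antibiotics, an interaction of 0.80 ± 0.14 (95% interval 0.49 to 1.10, adjusted p = 0.361). With single libraries left out the interaction ranged from 0.72 to 0.91. Its adjusted p (limma) then ran from 0.0316, without antibiotics library 3, to 0.808.

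Serpinf1 encodes pigment epithelium-derived factor, a secreted serpin that restrains vessel growth (chromosome 11, 75409769 to 75422701). Control libraries held 11.1, 11.7 and 14.1 RPKM, and control 5-FU libraries 2.25, 2.17 and 2.14. Antibiotics libraries held 12.9, 14.5 and 14.8 RPKM, and antibiotics 5-FU libraries 5.18, 5.61 and 4.55. Levels after 5-FU were low in both, and the 3 libraries with antibiotics lay above the 3 without. The interaction was 0.75 ± 0.14 (adjusted p = 0.374). It depends on the scale, since the RPKM difference of differences was 1.13 RPKM against means of 12.3 and 14.1 RPKM before 5-FU.

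Zfp513 encodes a zinc finger protein (chromosome 5, 31198981 to 31202303). It was at 6.00, 5.82 and 6.59 RPKM in control, 5.07, 5.41 and 5.48 in control 5-FU, 3.75, 3.56 and 3.97 in antibiotics and 7.10, 5.70 and 5.60 in antibiotics 5-FU libraries. The antibiotics libraries were the lowest, and the interaction of 0.75 ± 0.12 had the smallest adjusted p after the call, 0.272. It overlaps Snx17 on the opposite strand, which averaged 25.4 RPKM, and no source used here says whether counting used strand.

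Rbmx, an X-linked gene for an RNA-binding protein of splicing, had an interaction of 0.58 ± 0.13 (adjusted p = 0.5002). Its means were 5.63 and 3.31 RPKM before and after 5-FU in control mice, and 4.86 and 4.74 RPKM with antibiotics. Polr2a, the largest subunit of RNA polymerase II, stood out only in antibiotics 5-FU libraries, at 8.11, 8.78 and 8.28 RPKM against 5.46 to 6.20 in the other 9 (interaction 0.37 ± 0.09, adjusted p = 0.505). Calr, the endoplasmic reticulum chaperone calreticulin, had means of 134 and 109 RPKM in control and control 5-FU, and 111 and 120 RPKM with antibiotics. Its interaction was 0.41 ± 0.10. Ccdc28b (a modifier of cilium disease), H2-T22 (a nonclassical MHC class I molecule) and Klhdc3 (a substrate adaptor of a ubiquitin ligase), had interactions of 0.39, 0.53 and 0.37. In each of these the antibiotics libraries were the lowest group by mean.

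On the negative side the 10 leading genes were Sssca1, Actg1, Syncrip, Tomm34, Tubb4b, Sco2, Amd1, Brat1, Gemin4 and Faap100. In all 10 the antibiotics 5-FU mean lay below the control 5-FU mean. In 8 the antibiotics mean lay above control in untreated mice. Selection favors these signs too. Of the 368 negative genes at an unadjusted p below 0.05 (limma), 338 met the first condition and 326 the second.

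Actg1 encodes cytoplasmic gamma actin, a main component of the cell's actin filaments (chromosome 11, 120345690 to 120348542). Control libraries held 479, 513 and 455 RPKM, and control 5-FU libraries 461, 507 and 418, which overlap. Antibiotics libraries held 591, 606 and 612 RPKM, and antibiotics 5-FU libraries 428, 385 and 402. By mean, antibiotics was the highest group and antibiotics 5-FU the lowest, though the latter overlapped control 5-FU. The interaction was -0.51 ± 0.11 (adjusted p = 0.5002). A pair of pseudogenes that match its transcript had like values, -0.45 ± 0.11 for Gm12715 (99.6% identity) and -0.52 ± 0.14 for Gm8399 (98.6%), and their reads may be shared with Actg1.

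Tubb4b, a beta tubulin of microtubules, was at 286, 244 and 262 RPKM in control and 155, 143 and 131 in control 5-FU libraries. It was at 279, 321 and 249 RPKM with antibiotics and 98.9, 102 and 108 after 5-FU. Both pairs are well apart, with the lowest values in the antibiotics 5-FU group. The interaction was -0.56 ± 0.14 (adjusted p = 0.505).

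Sssca1, which encodes a small zinc ribbon protein, was at 10.51, 9.16 and 10.47 RPKM in control and 8.38, 9.08 and 8.41 in control 5-FU libraries. With antibiotics it was at 12.4, 12.3 and 11.7 RPKM, and at 6.71, 7.05 and 7.603 after 5-FU. Its interaction was -0.50 ± 0.10 (adjusted p = 0.5002), and it overlaps Fam89b on the same strand. Of the other leading genes, Syncrip and Gemin4 act on RNA, the first as an RNA-binding protein and the second in the complex that assembles spliceosomal particles, with interactions of -0.49 and -0.61. Tomm34, a cochaperone of mitochondrial import, and Sco2, a copper chaperone for cytochrome c oxidase, had interactions of -0.37 and -0.56. Amd1, the S-adenosylmethionine decarboxylase of polyamine synthesis, was at -0.43. Brat1 and Faap100, of the DNA damage response and the Fanconi anemia core complex, were at -0.43 and -0.49. Some of these values may hold reads of other genes. Gemin4 overlaps Glod4 on the same strand and matches it at 100% over 3353 bases. Amd1 matches Amd2 at 99.6% over 3202 bases, and Sco2 overlaps Ncaph2 on the opposite and Tymp on the same strand.

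**Figure D2:**
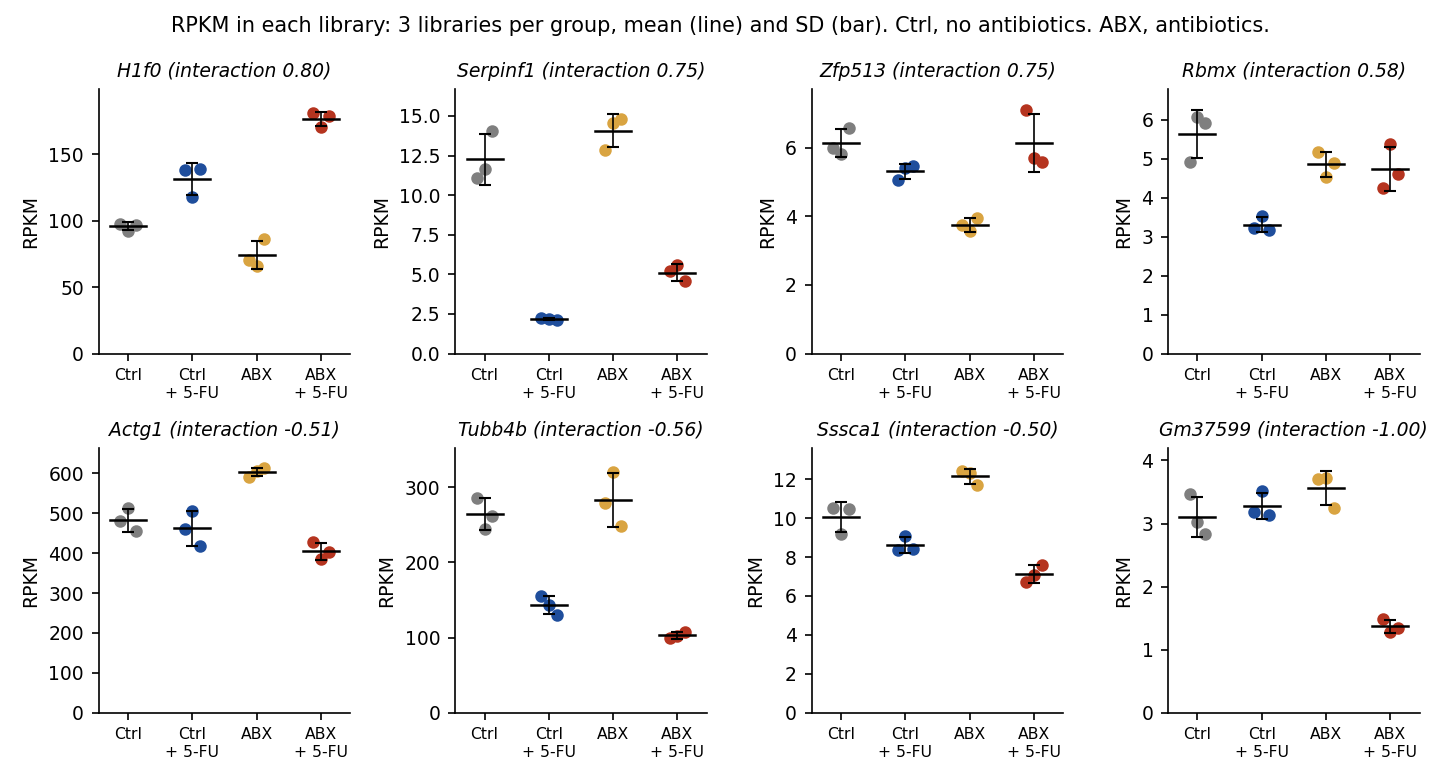
RPKM of 8 genes in each of the 12 libraries, by group, with the mean as a line and the SD as a bar (n = 3). By mean, the antibiotics 5-FU group is the highest for H1f0 and the lowest for Actg1, Tubb4b, Sssca1 and Gm37599, and only Gm37599 passed the adjusted threshold.

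Members of 35 gene lists were then described by the number of members on each side and the median, beside the all-gene median of -0.02. None of the 797 list genes tested was called. The list of type I interferon genes had 38 of 47 members tested. Of these, 35 had a positive estimate, 10 were positive at an unadjusted p below 0.05 and none negative, beside 4.00% of all genes. The median was 0.24, with medians of 0.05 for the 5-FU change without antibiotics and 0.32 with. The 10 were Samd9l, Rsad2, Xaf1, Stat2, Rtp4, Lgals3bp, Irf7, Ifi44, Dhx58 and Parp9.

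The difference between mice with and without antibiotics lay mostly on the untreated side, where the groups also differed in estimated depth. The median difference of the 38 genes between antibiotics and control was -0.26 in untreated mice, where 31 of 38 were below 0. After 5-FU the median was -0.00, with 19 of 38 below 0. With single libraries left out, 31 to 36 members had a positive sign and 5 (without antibiotics 5-FU library 2) to 14 (without control library 3 or antibiotics 5-FU library 3) passed the unadjusted threshold.

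Irf7, the transcription factor that amplifies interferon production, was at 15.8, 15.8 and 10.55 RPKM in control and 21.5, 18.3 and 16.9 in control 5-FU libraries. With antibiotics it was at 10.1, 9.88 and 9.30 RPKM, and at 22.4, 24.1 and 16.4 after 5-FU. Its antibiotics libraries lay below the other 9, and the groups after 5-FU overlapped. The interaction was 0.60 ± 0.23 (adjusted p = 0.580).

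Samd9l, an interferon-induced inhibitor of cell growth, was at 2.41, 2.23 and 2.11 RPKM in control, 2.85, 2.65 and 2.72 in control 5-FU, 1.93, 1.82 and 2.01 in antibiotics and 3.27, 3.81 and 3.49 in antibiotics 5-FU libraries. No group overlapped another, and the interaction was 0.42 ± 0.10 (adjusted p = 0.5002). Rsad2, the antiviral enzyme viperin, had means of 2.49 and 3.63 RPKM in control and control 5-FU, and 2.58 and 5.303 with antibiotics (interaction 0.41 ± 0.12). For Rsad2 the antibiotics and control means were close before 5-FU and apart after it, unlike Irf7. Stat2, a subunit of the interferon-activated factor, had an interaction of 0.43 ± 0.15.

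The promoter element of this pathway was searched in the 250 bases before each gene start in RefSeq (GRCm38.p6, the mm10 assembly). The letters were GAAANNGAAA, or TTTCNNTTTC for the other strand, where N is any base. Of 29 type I interferon genes with a window, 10 held it (34.5%), against 200 of 5663 tested genes with a window (3.53%). It is not particular to this list, since 12 of 25 genes of the interferon gamma list, described below, held it (48.0%). Windows of 3 type I interferon genes are shown. They are the pair with the smallest p among those holding it and Isg15, whose run of 3 overlapping matches is the longest. Capitals mark the matched letters, and each window ends at the base before the gene start.
Rsad2 (chr12:26456453-26456702, minus strand): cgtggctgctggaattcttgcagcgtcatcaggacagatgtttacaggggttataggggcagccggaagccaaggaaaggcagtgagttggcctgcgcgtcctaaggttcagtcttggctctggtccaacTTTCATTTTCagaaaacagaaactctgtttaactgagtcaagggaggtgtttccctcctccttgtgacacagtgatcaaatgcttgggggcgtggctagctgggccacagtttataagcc
Stat2 (chr10:128270248-128270497, plus strand): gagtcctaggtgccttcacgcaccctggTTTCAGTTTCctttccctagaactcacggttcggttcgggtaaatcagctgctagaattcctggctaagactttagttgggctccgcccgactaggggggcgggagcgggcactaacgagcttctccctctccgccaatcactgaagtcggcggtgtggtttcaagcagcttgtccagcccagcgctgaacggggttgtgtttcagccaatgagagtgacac
Isg15 (chr4:156200819-156201068, minus strand): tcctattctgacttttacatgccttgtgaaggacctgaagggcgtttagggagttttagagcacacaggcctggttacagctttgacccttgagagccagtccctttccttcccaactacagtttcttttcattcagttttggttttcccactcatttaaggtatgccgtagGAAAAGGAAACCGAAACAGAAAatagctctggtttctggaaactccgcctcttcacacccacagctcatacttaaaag
Members of the type I list with and without the letters had like interactions, a median of 0.24 for the 10 with and 0.23 for the 19 without. A match in these windows is not a site shown to be used.

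Genes induced by interferon gamma and those of antigen presentation had the same sign. In the interferon gamma list, 25 of 30 members were positive with a median of 0.22. Beside 4.00% of all genes, 3 members (Gbp2, Tgtp2 and Tap1) were positive at an unadjusted p below 0.05. That number was 2 to 8 with single libraries left out, 8 without antibiotics library 3 or antibiotics 5-FU library 3. Gbp2, a guanylate-binding protein of cell-autonomous defence, had means of 5.80 and 4.79 RPKM in control and control 5-FU, and 4.87 and 6.02 with antibiotics (interaction 0.49 ± 0.17). Socs1, the feedback inhibitor of the same pathway, was at -0.65 ± 0.33. The MHC class II list had 6 of 7 positive and a median of 0.31, none below an unadjusted p of 0.05. Its median was 0.03 without control library 3 and 0.64 without control library 1.

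**Figure D3:**
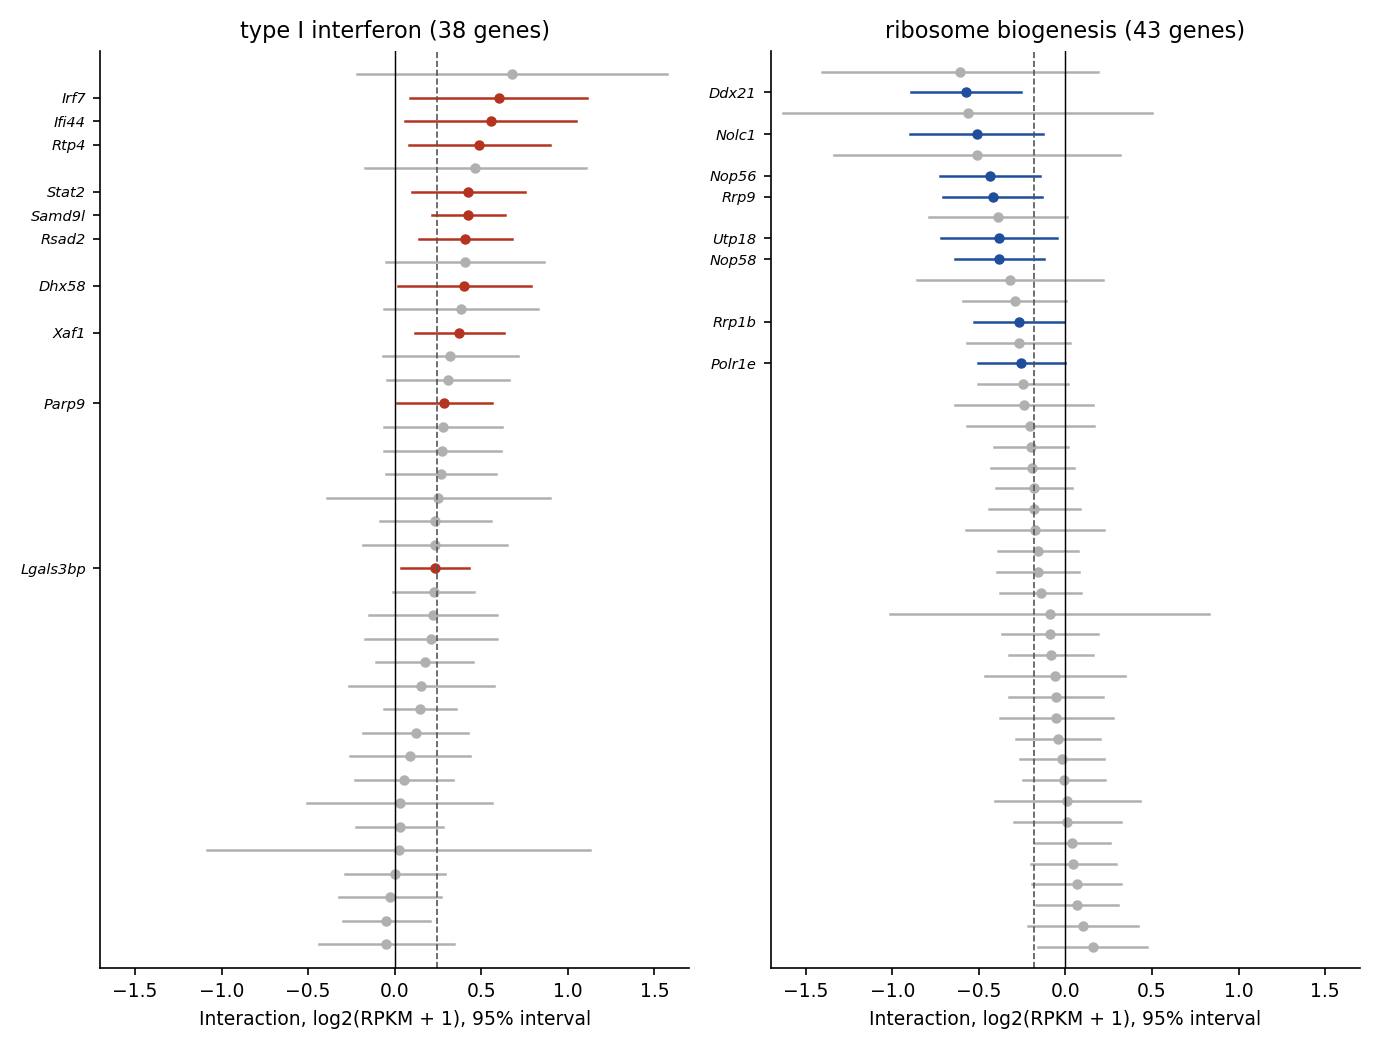
Interaction with its 95% interval for each tested member of the type I interferon list (38 genes, left) and the ribosome biogenesis list (43 genes, right), on the log2(RPKM + 1) scale, dashed lines marking the medians of 0.24 and -0.18. Members in red, 10 on the left, and in blue, 8 on the right, are named and had an unadjusted p below 0.05, and no member passed the adjusted threshold.

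Ribosome biogenesis genes, which make and process ribosomal RNA in the nucleolus, lay on the other side. Of 43 tested members, 35 had a negative estimate and 8 were negative at an unadjusted p below 0.05 (Ddx21, Nop56, Nop58, Rrp9, Nolc1, Utp18, Rrp1b and Polr1e), beside 4.30% of all genes and with none positive. Their median interaction was -0.18, from 5-FU changes of -0.19 without and -0.39 with antibiotics. Here the difference lay mostly after 5-FU, where 33 of 43 members were lower with antibiotics (median -0.12), whereas before 5-FU 16 of 43 were (median 0.06). With single libraries left out, 33 to 37 members were negative, and 5 (without control library 2) to 14 (without control library 1) were so at an unadjusted p below 0.05.

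Nop56, a core protein of the particles that methylate ribosomal RNA, was at 45.1, 39.3 and 48.4 RPKM in control and 32.3, 30.8 and 26.1 in control 5-FU libraries. With antibiotics it was at 49.1, 48.8 and 46.5 RPKM, and at 23.2, 24.4 and 23.3 after 5-FU. The antibiotics 5-FU libraries were the lowest, without overlap (interaction -0.44 ± 0.13, adjusted p = 0.505). Its partner Nop58 had an interaction of -0.38 ± 0.12, and the nucleolar helicase Ddx21 of -0.57 ± 0.15. Nop56 overlaps Idh3b on the opposite strand, which averaged 21.1 RPKM. Myc, a regulator of these genes, had means of 69.4 and 37.8 RPKM in control and control 5-FU, and 65.9 and 35.6 RPKM with antibiotics, an interaction of 0.01 ± 0.19.

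Of 77 tested cytosolic ribosomal protein genes, 58 were positive, with a median of 0.08. At an unadjusted p below 0.05, 6 were positive and none was negative, beside 4.00% and 4.30% of all genes. These values rest on single libraries: without control library 3, 42 were positive, 1 was positive and 1 negative at an unadjusted p below 0.05, and the median was 0.02. Over all single libraries left out, 1 to 12 were positive at that threshold, with 12 reached without antibiotics library 3. Rpl4, a protein of the large subunit, was at 192, 180 and 198 RPKM in control, 141, 132 and 141 in control 5-FU, 155, 141 and 172 in antibiotics and 145, 150 and 150 in antibiotics 5-FU libraries (interaction 0.39 ± 0.11, adjusted p = 0.505). Its control libraries were the highest group, and the antibiotics libraries overlapped both groups given 5-FU.

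Fatty acid oxidation, the mitochondrial breakdown of lipids that HSCs are known to use, had 28 of 33 members positive and a median of 0.16. At an unadjusted p below 0.05, 5 were positive (Acad12, Acadm, Acadvl, Acaa2 and Slc25a20) and none was negative, beside 4.00% and 4.30% of all genes. The number positive was 3 with the i7 index as a block and 3 to 8 with single libraries left out (8 without antibiotics library 3). Before 5-FU, 28 of 33 were lower with antibiotics than without, and after it 9 of 33 were. Acadm, the medium-chain acyl-CoA dehydrogenase, had means of 4.38 and 4.11 RPKM in control and control 5-FU, and 3.96 and 5.27 RPKM with antibiotics (interaction 0.43 ± 0.15, adjusted p = 0.554). Oxidative phosphorylation had a median of 0.02 over 73 genes. At an unadjusted p below 0.05, 5 were positive and 1 negative, beside 4.00% and 4.30% of all genes. The 1 was Cycs, cytochrome c, at -0.53 ± 0.20, which Gm10053 matches at 99.9% over 946 bases. The oxidative phosphorylation median was -0.08 without control 5-FU library 3 and 0.09 without control 5-FU library 1. Glycolysis had a median of 0.09 over 21 genes (0.18 without antibiotics library 3), led by Pdk3, a kinase that limits pyruvate entry into mitochondria, at 0.30 ± 0.10 and Aldoc, an aldolase, at 0.57 ± 0.22.

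**Figure D4:**
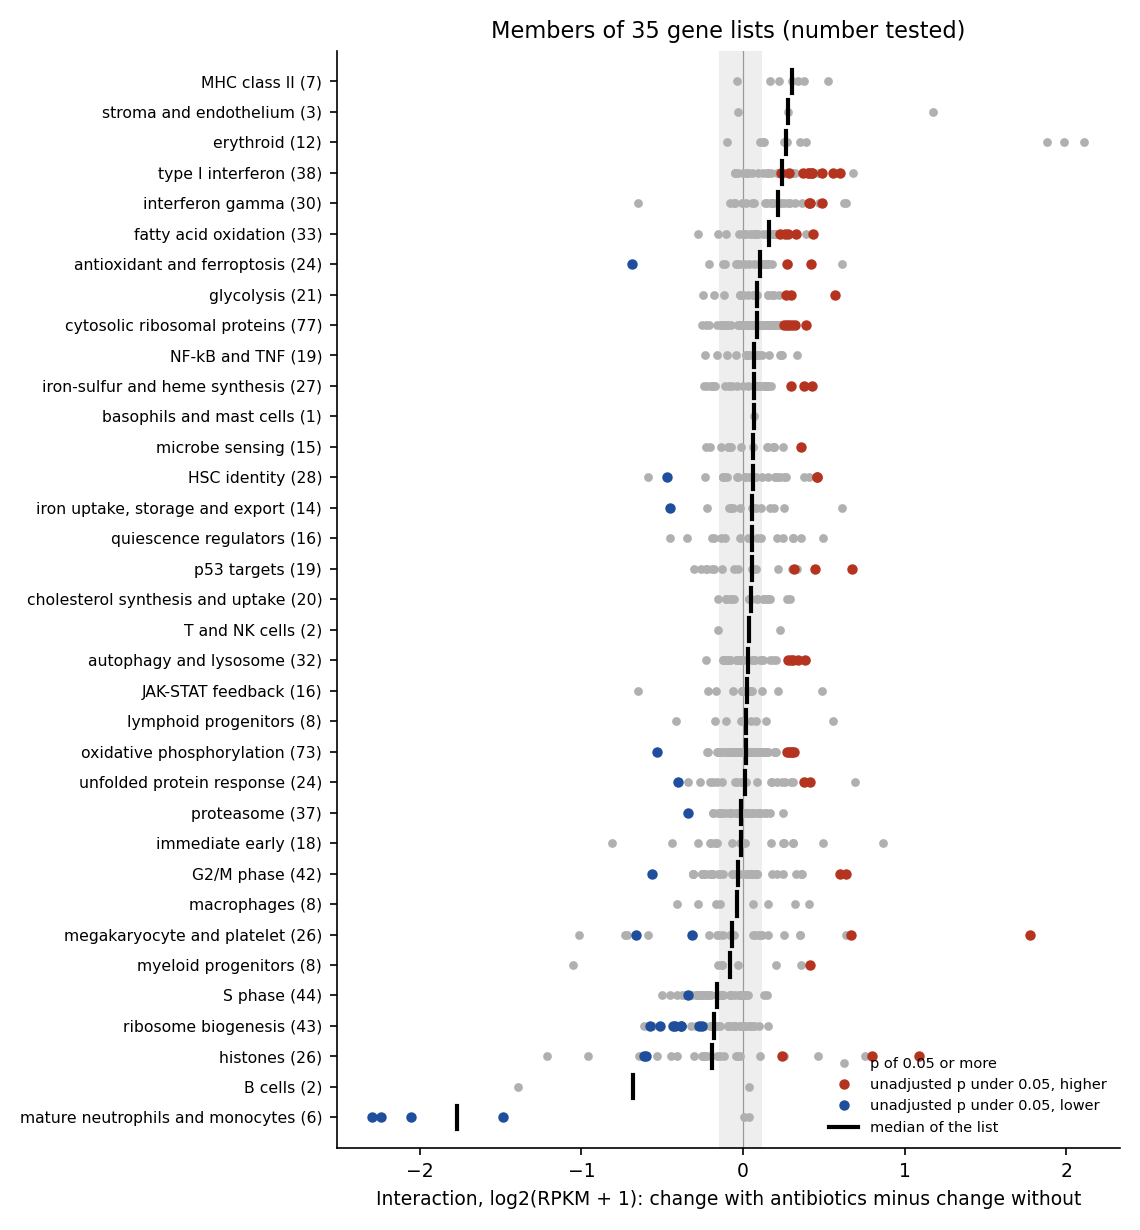
Interaction of each tested member of 35 gene lists (points) on the log2(RPKM + 1) scale, with the list median as a bar and the middle 50% of all genes, -0.14 to 0.11, shaded. The medians for type I interferon (0.24) and ribosome biogenesis (-0.18) are among those outside the shading, and the lowest row shows only the 6 of 20 neutrophil and monocyte genes that passed the filter on low values.

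The S phase list had 37 of 44 members negative and a median interaction of -0.16, between 5-FU medians of -0.65 without and -0.80 with antibiotics. Only Mcm7 had an unadjusted p below 0.05, beside 4.30% of all genes on the negative side. With single libraries left out, 0 to 8 members were negative at that threshold, with 8 reached without antibiotics library 3. Mcm7, a subunit of the replicative helicase, had means of 44.1 and 22.1 RPKM without and 52.5 and 20.6 RPKM with antibiotics (interaction -0.34 ± 0.16, adjusted p = 0.598). Mcm7 overlaps Cops6 on the opposite strand, which averaged 38.6 RPKM, and Gm5487 matches its transcript at 97.7% over 2157 bases. Without control 5-FU library 1 the S phase median was -0.05, and without control library 1 it was -0.27. The G2/M list had a median of -0.03 over 42 genes, which was -0.15 without control 5-FU library 2 and 0.08 without control 5-FU library 1. Its members at an unadjusted p below 0.05 were Tubb4b, above, on the negative side, and Cenpa, the centromeric histone H3 variant, and Ccnb2, cyclin B2, on the positive side, at 0.60 ± 0.19 and 0.64 ± 0.25. These were 1 negative and 2 positive of 42 members, beside 4.30% and 4.00% of all genes. Mki67, the proliferation antigen Ki-67, had an interaction of -0.04 ± 0.26, and Cdkn1a, the p21 inhibitor of cell division, -0.19 ± 0.61.

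The histone list had a median of -0.19 over 26 genes, 19 of them negative. At an unadjusted p below 0.05, 3 were positive (H1f0, Hist1h1c and H3f3b) and 2 negative (Hist1h2bg and Hist1h4h), beside 4.00% and 4.30% of all genes. The median was -0.04 without control 5-FU library 1 and -0.30 without control 5-FU library 3, and the negative count ranged from 1 to 5. Hist1h1c, which encodes the linker histone H1.2, was at 8.87, 11.6 and 11.5 RPKM in control, 24.4, 13.1 and 15.7 in control 5-FU, 7.61, 9.55 and 8.27 in antibiotics and 40.3, 26.9 and 26.3 in antibiotics 5-FU libraries. The antibiotics 5-FU libraries lay above the other 9, and the interaction was 1.09 ± 0.30 (adjusted p = 0.505). Among core histones, Hist1h2ae had the largest negative estimate, -1.21 ± 0.58 (adjusted p = 0.606), which rested in part on 1 antibiotics library at 133 RPKM beside 49.8 and 34.3. Without that library it was -0.66. Most transcripts of replication-dependent histones, core or linker such as Hist1h1c, lack a poly(A) tail. The cDNA kit primes on poly(A), so values of those genes cover the tailed share only.

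HSC identity genes had a median of 0.06 over 28 genes. Slamf1, which encodes the HSC surface marker CD150, was at 1.18, 1.24 and 1.36 RPKM in control, 2.43, 2.11 and 1.96 in control 5-FU, 0.815, 0.872 and 1.21 in antibiotics and 2.57, 2.72 and 3.03 in antibiotics 5-FU libraries. The antibiotics 5-FU libraries were the highest, and the interaction was 0.46 ± 0.13 (adjusted p = 0.505). Pdzk1ip1, a membrane protein enriched in HSCs, was at 0.46 ± 0.14, Procr at 0.38 ± 0.20 and Hlf at -0.10 ± 0.21. Bmi1, a Polycomb gene of self-renewal, was the member on the negative side with an unadjusted p below 0.05, at -0.47. Mecom, another HSC transcription factor, and Tfrc, the transferrin receptor, did not pass the filter on low values.

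Wfdc17, a secreted protein of activated myeloid cells, was at 1.56 to 2.29 RPKM in control and 53.6, 111 and 88.8 in control 5-FU libraries. It was at 1.16 to 2.30 RPKM with antibiotics and 63.3, 72.6 and 85.9 after 5-FU. Groups after 5-FU overlapped, and the interaction was -0.11 ± 0.34, with a 95% interval of -0.85 to 0.64. Socs3, a feedback inhibitor of cytokine signaling through STAT3, had 5-FU changes of 2.87 and 3.36 and an interaction of 0.49 ± 0.24 (interval -0.03 to 1.01). For Socs3 the difference of differences was positive on the log2 scale but -2.69 in RPKM, since its mean was 3.45 RPKM in control and 1.79 with antibiotics before 5-FU.

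The NF-kB list had a median of 0.07 over 19 genes, with none past an unadjusted p of 0.05, and its inhibitor Nfkbia was at 0.08 ± 0.19. Among genes that sense microbes, Tlr2, the receptor for bacterial lipoproteins, had means of 5.11 and 6.35 RPKM without and 4.02 and 6.76 RPKM with antibiotics (interaction 0.36 ± 0.13, adjusted p = 0.554). It was the 1 of 15 list members with an unadjusted p below 0.05, beside 4.00% of all genes on the positive side. The adaptor Myd88 was at 0.18 ± 0.12. Fth1, the heavy chain of the iron store ferritin, was at 0.08 ± 0.12, and Slc40a1, the iron exporter ferroportin, at -0.07 ± 0.34.

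Estimates for markers of mature neutrophils moved with single libraries. S100a8, which encodes a calcium-binding protein of neutrophil cytosol, was at 5.22, 8.23 and 10.96 RPKM in control and 21.4, 57.7 and 143 in control 5-FU libraries. It was at 6.12, 11.8 and 9.08 RPKM with antibiotics and 8.32, 9.44 and 23.6 after 5-FU. Control 5-FU libraries spread widely, and their lowest lay below the highest antibiotics 5-FU library. The interaction was -2.24 ± 0.81 (adjusted p = 0.571). S100a9, its binding partner, and the granule genes Ngp and Camp were at -2.05 ± 0.76, -2.29 ± 1.02 and -1.48 ± 0.67. Each was highest in control 5-FU library 3, and without that library the estimates were -1.58 for S100a8, -1.40 for S100a9, -1.32 for Ngp and -0.85 for Camp. Without control 5-FU library 1 they were -2.92, -2.69, -3.07 and -2.02, in the same order.

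Of 20 genes in the neutrophil and monocyte list, 6 passed the filter on low values, some of them through the group where they were high. With no filter, the median interaction of the 20 was -0.36, 16 had a negative estimate, and 2 were negative at an unadjusted p below 0.05. The summed level of the 20 was 126 to 139 RPKM in control, 141 to 385 in control 5-FU, 103 to 130 in antibiotics and 122 to 142 in antibiotics 5-FU libraries. Lyz2, lysozyme of myeloid cells, was at 91.4 to 126 RPKM in all 12 libraries, with an interaction of 0.03 ± 0.14. Fewer cells of a type and less RNA per cell cannot be told apart in such libraries. What part neutrophil RNA had in other interactions was not tested.

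Globins and platelet genes also moved with single libraries. Hba-a1, alpha globin, was at 74.0 RPKM in control library 1 and 108 RPKM in antibiotics 5-FU library 3, against 1.13 to 26.4 RPKM in the other 10. Its estimate of 1.99 ± 1.64 was 0.56 without control library 1. The erythroid list had 11 of 12 tested members positive and a median of 0.27, with none past the unadjusted threshold. With single libraries left out, 10 to 12 were positive and 0 to 3 passed that threshold. The list median then ran from 0.17 (without control library 1) to 0.58 (without control 5-FU library 1). Pf4, platelet factor 4, reached 309 RPKM in control 5-FU library 1 and 106 RPKM in control library 1, against 22.0 to 71.8 RPKM elsewhere. Its estimate of -1.02 ± 0.92 was -0.23 without the first of these and -1.74 without the second. Stromal Cxcl12 was at 23.4 RPKM in antibiotics 5-FU library 1 and at most 4.98 RPKM in the others, with an estimate of 1.18 ± 1.57.

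Selp, which encodes P-selectin, was at 1.77, 3.99 and 3.36 RPKM in control, 14.1, 15.5 and 14.8 in control 5-FU, 1.12, 1.43 and 1.34 in antibiotics and 12.9, 13.9 and 14.2 in antibiotics 5-FU libraries. Its antibiotics libraries were the lowest, and its interaction was 0.67 ± 0.24 on the log2 scale (adjusted p = 0.558) and 0.622 in RPKM. With single libraries left out it ranged from 0.49 to 0.92. Plek, the platelet kinase substrate pleckstrin, and Fli1, a megakaryocytic transcription factor, were at -0.66 ± 0.21 and -0.32 ± 0.09. Thbs1, which encodes a thrombospondin, varied among control libraries, at 5.73, 16.9 and 6.97 RPKM, beside 2.46, 0.760 and 0.814 in control 5-FU, 0.910, 0.576 and 4.88 in antibiotics and 1.22, 0.769 and 1.08 in antibiotics 5-FU libraries (interaction 1.77 ± 0.68, adjusted p = 0.578, and 1.34 to 2.36 with single libraries left out). The 3 control libraries lay above the other 9.

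**Figure D5:**
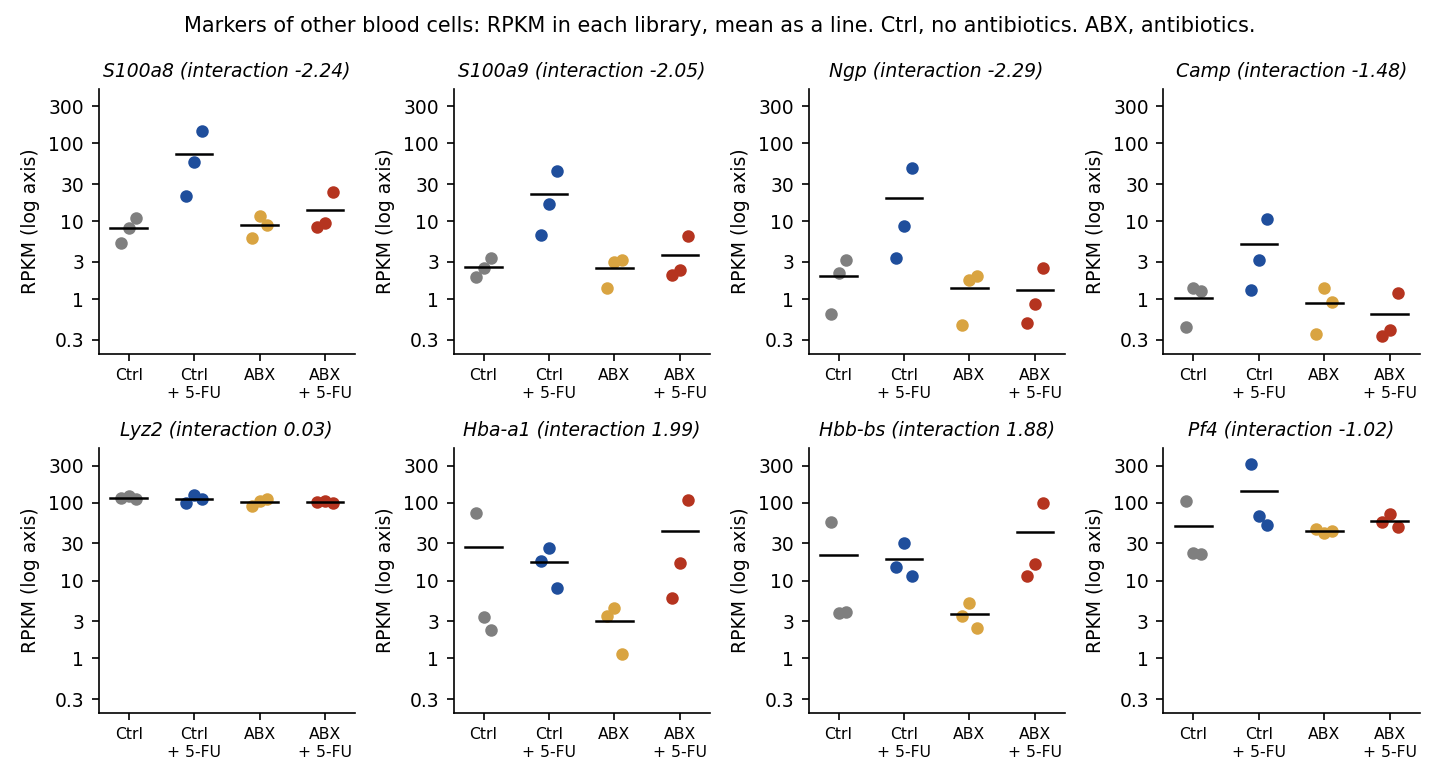
RPKM (log axis) of 8 markers of other blood cells in each library, with the mean as a line. The 4 neutrophil genes S100a8, S100a9, Ngp and Camp are highest in control 5-FU library 3, the globins Hba-a1 and Hbb-bs in antibiotics 5-FU library 3 and then control library 1, and Pf4 in control 5-FU library 1, whereas Lyz2 stays between 91.4 and 126 RPKM.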

How the data were processed

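Gene expression was measured by RNA sequencing in 12 HSC libraries, 3 in each of 4 groups. The labels number no replicates, so accession order names them. Per the labels, kits were RNeasy Plus Micro, SMART-Seq v4 and Nextera XT. Alignment with STAR 2.5.3a to mm10 and use of Partek are given in the submitters' processing notes. The authors deposited RPKM values for 46986 features, with 0.0001 in place of 0. How reads were counted, with which strand setting and annotation, is not stated in what was used here. Coordinates are those of the deposited table, with its stop less 1 as the end.

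Low values were used to estimate depth: 48.7% to 54.2% of them lay within 2% of whole 1-read steps, which does not recover whole reads, and count models were not used. Depth limits precision for genes at a few RPKM.

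Values were taken as log2(RPKM + 1) and fitted in R 4.3.3 with limma 3.58.1 as 4 group means. The fit had 8 residual and 3.34 prior degrees of freedom, with an intensity trend. Tests were two-sided, adjusted by Benjamini-Hochberg over 8553 genes. On this scale, changes of low genes are understated. The script was tested on simulated data. Counts at an unadjusted p describe and call nothing.

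The genes and the 35 lists (1070 genes, 1067 in the table, 797 tested) were chosen with earlier results of these data known. Named genes were up to 12 called per direction with a group mean of at least 5 RPKM, without predicted, mitochondrial or small RNA genes, filled to 10 by smallest p, then up to 2 members per list and 15 preset genes. Other genes, among them Gm37599 and its near copy Ppid, were named after their values were seen. Some genes that the rule names are not reported here. Near copies were sought in GENCODE M21 transcripts with BLAST+ 2.17.0, at 95% identity or more over at least 200 bases, and values of genes with near copies or overlapping genes are uncertain. Promoter windows are from RefSeq. Alternatives were other pseudocounts, filters, scalings, moderation and weights, the i7 index as a block, and each library left out. The share with larger changes under antibiotics and the median over all genes were added after seeing the data.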

Additional observations from a re-analysis of the deposited data

Results flagged for a closer look

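The predicted transcript Gm37599 is given here because its 5-FU change differed between mice with and without antibiotics by the interaction test itself, at -1.004 on the log2(RPKM + 1) scale. It was -0.94 with antibiotics and 0.06 without. Groups of 3 libraries are too small for the outlier test used on larger groups, so none was run.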

How the results depend on the processing

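Of 121 genes, 107 had the same sign of interaction under each of the 23 alternatives in which they were tested. Without a filter on low values there were 7 calls, with 835 positive and 739 negative genes at an unadjusted p below 0.05 and r = 0.746 across genes. At a filter of 5 RPKM these were 0 calls, 166, 167 and r = 0.820, and with the i7 index as a block there were 0 calls. With single libraries left out, calls ranged from 0 to 3, positive genes from 220 (without antibiotics library 1; 221 without library 2) to 542 (without antibiotics library 3), negative genes from 251 to 526, the slope from 1.07 to 1.31 and r from 0.735 to 0.805. The 14 genes whose sign turned were mostly near 0. It turned for Mki67 at a pseudocount of 0.1 (0.00098), and for Pgk1 when centred on the median (0.019) or quantile normalized (0.0082). Array weights turned Mki67 (0.033), Pgk1 (0.012), Cdkn1a (0.138), Lyz2 (-0.051), Slc40a1 (0.031), Cd79b (-0.099) and Myc (-0.046). Leaving out single libraries gave -0.021 to 0.785 for Vcam1, -0.297 to 2.004 for Cxcl12, -0.053 to 0.504 for Col1a2, -0.286 to 0.062 for Nkg7, -0.320 to 0.021 for Hlf, -0.023 to 0.198 for Nfkbia, -0.400 to 0.115 for Wfdc17 and -0.573 to 0.473 for Cdkn1a. It gave -0.060 to 0.121 for Lyz2, -0.237 to 0.192 for Slc40a1, -0.055 to 0.163 for Cd79b, -0.252 to 0.095 for Mki67, -0.086 to 0.099 for Pgk1 and -0.102 to 0.158 for Myc. The cause was not tested. The labels give no replicate numbers, so the only block was the i7 index.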

Other observations

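Among lists not described above, genes of iron-sulfur and heme synthesis had 17 of 27 members positive, with a median of 0.07, which was -0.01 without control library 1. Urod and Ppox, enzymes of the heme pathway, had interactions of 0.38 ± 0.15 and 0.43 ± 0.17. In the iron list of 14 genes, Pcbp1, an iron chaperone, was at -0.45 ± 0.13. Antioxidant genes had a median of 0.10 over 24 genes and members on both sides, with Srxn1, which repairs peroxiredoxins, at 0.42 ± 0.13 and Gclm, a subunit of the first enzyme of glutathione synthesis, at -0.69 ± 0.30. Autophagy and lysosome genes had 5 positive members of 32 at an unadjusted p below 0.05, beside 4.00% of all genes. Among the 5 was Sqstm1, a cargo receptor of autophagy, at 0.30 ± 0.13. The number of positive members was 2 with the i7 index as a block, and 1 (without antibiotics library 1 or 2, or antibiotics 5-FU library 1) to 8 (without antibiotics library 3) with single libraries left out. The p53 target list had 3 of 19 positive at that threshold (Gadd45b, Gadd45g and Sesn1), beside the same 4.00%. It had 0 without control library 2 or 3, antibiotics library 1 or antibiotics 5-FU library 3. None of these passed the adjusted threshold (limma).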
